A study of Mus musculus with 6 samples.

Results

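Granzymes are serine proteases that killer lymphocytes store in granules and release onto a target cell. The genes described here are the 8 granzyme genes Gzma, Gzmb, Gzmc, Gzmd, Gzme, Gzmf, Gzmg and Gzmk, together with Prf1 and Srgn. Prf1 encodes the pore-forming protein perforin, and Srgn encodes serglycin, a proteoglycan of the granules. The genes were taken by name from the deposited table, and all 10 were found among its 21958 genes. Of these, 9 had enough reads to be tested and 1, Gzmk, did not. The 6 libraries were made from whole tumors of the mouse colon carcinoma line MC38 grown under the skin of wild-type male C57BL/6J mice, and the mice of the study were 6 to 8 weeks old. In 3 of them the tumor had been injected with Mn-N/C, a nanozyme carrying single manganese atoms, at 70 mg/kg in 50 µL every 3 days, and in the other 3 with 50 µL of saline, called vehicle. Tumors were collected at 800 to 1000 mm3. Neither the labels nor the methods say whether each library came from its own mouse, and the p-values measure only the spread between these libraries.

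When a cytotoxic T cell or natural killer (NK) cell meets its target, perforin opens the membrane and granzymes pass into the cytosol. Granzyme B then cleaves caspases and Bid and starts apoptosis, whereas granzyme A is a trypsin-like protease that acts largely without caspases. In mice the granzyme family is larger than in humans. Gzmc, Gzmd, Gzme, Gzmf and Gzmg lie beside Gzmb on chromosome 14 and are not matched gene by gene in humans. Mouse lymphocytes are known to switch these neighbours on late, after strong or prolonged stimulation.

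The libraries held 14988588 to 18961134 counted reads. A count of 0 allows up to 3 reads, which is 0.158 to 0.200 CPM (reads scaled to a common library size) depending on the library, as counting error only. Levels of cell type markers varied between libraries of 1 group. Summed over 11 T cell markers, the level was 10.1, 22.4 and 9.50 CPM in the Mn-N/C libraries (replicates 1 to 3), against 20.7, 14.3 and 6.99 CPM in the vehicle libraries. Of these sums, Lck alone gave 4.97, 5.72 and 4.39 CPM in the Mn-N/C libraries and 4.78, 4.96 and 4.13 CPM in the vehicle libraries. Lck varied less than the sum and so made up a larger part of it where the sum was low. Mn-N/C replicate 2 also stood apart in 5 skeletal muscle genes, at 569 CPM against 8.38 to 188 CPM in the other libraries. For the genes described here, and for Gzmc to Gzmf and Gzmc to Gzmg summed, log2 fold changes are given with and without this library. Those of markers and of other gene lists are given from all 6 libraries only, and their dependence on this library was not tested. The label calls the cells colon cancer cells. Of 8 epithelial and colon carcinoma markers, Cdh1 had 271 to 753 reads per library and Lgals4 had 40 to 91, whereas Epcam, Krt8, Krt18, Krt19 and Vil1 had 0 to 18 and Cdx2 had 0 reads in all 6 libraries. In bulk tissue, fewer cells of a type and less RNA per cell cannot be told apart.

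Sequences are shown first for the cluster on chromosome 14, because its members share both their promoters and parts of their transcripts. In the RefSeq promoter windows (250 bases before to 50 after the start, build GRCm38.p6), a block of 80 bases was found upstream of Gzmc, Gzmd, Gzme, Gzmf and Gzmg, differing from that of Gzmc at 4 to 7 positions. The block lies on the minus strand at chr14:56234668-56234747 for Gzmc, chr14:56132608-56132687 for Gzmd, chr14:56120641-56120720 for Gzme, chr14:56211443-56211522 for Gzmf and chr14:56159610-56159689 for Gzmg. The capitals mark the 8 bases at the site of the cyclic AMP response element (CRE), TGACGTCA.
Gzmc: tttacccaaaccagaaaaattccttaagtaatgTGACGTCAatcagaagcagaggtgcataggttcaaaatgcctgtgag
Gzmd: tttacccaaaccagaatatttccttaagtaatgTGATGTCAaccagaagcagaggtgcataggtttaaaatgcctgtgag
Gzme: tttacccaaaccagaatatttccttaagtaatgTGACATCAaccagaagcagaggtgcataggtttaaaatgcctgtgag
Gzmf: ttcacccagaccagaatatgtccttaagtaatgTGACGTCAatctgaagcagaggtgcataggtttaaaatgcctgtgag
Gzmg: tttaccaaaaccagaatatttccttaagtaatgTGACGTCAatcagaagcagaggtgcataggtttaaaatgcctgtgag
Gzmc, Gzmf and Gzmg carried TGACGTCA, first base at -57, -82 and -77 from the start, a motif found on either strand in 1.79% of 32851 mouse promoters. Gzmd and Gzme carried TGATGTCA and TGACATCA in its place, which are the same motif read on opposite strands and were found in 3.62% of promoters. The stretch TCCTTAAGTAATGTGA just before and into the capitals was found in 5 of the 32851 promoters, those of these 5 genes. It was picked as a run that these 5 promoters share, so its presence in them was given beforehand. TGACGTCA was not in the windows of Gzmb, Gzma, Gzmk, Prf1 or Srgn. The other motifs searched, on both strands, were TGTGGT (RUNX, in 16.8% of promoters), GGAAGT (ETS, 23.8%), TGANTCA (AP-1, 7.81%), TTCNNNGAA (STAT, 8.30%) and AGGTGTGA (T-box, 1.28%). The RUNX letters occurred in the windows of Gzma, Gzmb, Gzmc, Gzmd, Gzme, Gzmf, Gzmg and Prf1 and in 1 of the 2 windows of Srgn, the ETS letters in those of Gzmc, Gzmd, Gzme, Gzmf, Gzmg, Gzmk and Prf1 and in 1 of the 2 of Srgn, and the AP-1 and STAT letters in that of Gzmb alone among the 10 genes. The T-box letters were in none of them. These are matches of letters and not measured binding sites.

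The transcripts of the cluster are close enough for reads to fit more than 1 gene. In reading frames from the GENCODE vM21 annotation of GRCm38, Gzmd and Gzme were identical at 94.8% of aligned bases, Gzme and Gzmg at 89.5%, and Gzmd and Gzmg at 88.7%. Gzmc shared 73.4% to 75.2% with these genes and Gzmf and 76.7% with Gzmb. The longest run that Gzmd and Gzme share is 96 coding bases, at positions 496 to 591 of the Gzmd transcript (chromosome 14, minus strand), and it is shown whole, with no capitals, because every base of it is identical in both genes.
Gzmd and Gzme: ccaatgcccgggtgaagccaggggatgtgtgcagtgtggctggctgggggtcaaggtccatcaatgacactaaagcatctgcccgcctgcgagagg
Of all 50-base windows of a transcript, the share found exactly in another gene was 21.9% for Gzmd, 20.6% for Gzme, 19.8% for Gzmg, 7.36% for Gzmf and 4.14% for Gzmc, and it was 0 for Gzmb, Gzma, Gzmk, Prf1 and Srgn. At 75 bases it was 5.73% for Gzmd, 4.75% for Gzme and 6.83% for Gzmg and 0 for the rest, and at 150 bases it was 0 for all 10. The sources used here give neither the read length nor the handling of reads that fit several genes, so counts of Gzmd, Gzme and Gzmg one by one are uncertain. This doubt is smaller for Gzmb, Gzma, Prf1 and Srgn, which share no exact window of 50 bases or more with another gene. The longest run that Gzmb shares with Gzmc is 49 bases, just under that window.

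Among the 10 genes, Gzmc, Gzmg and Gzmd of the cluster had the highest mean levels per length, while Srgn was above Gzmf and Gzme. By mean FPKM (reads scaled by gene length and by the library total) over the 6 libraries, Gzmc stood first at 29.0, followed by Gzmg at 20.3, Gzmd at 19.7, Srgn at 18.6, Gzmf at 9.87 and Gzme at 8.80. Gzmb followed at 4.92, Prf1 at 2.36, Gzma at 1.06 and Gzmk at 0.0205. Gzmc was above Gzmg, Srgn above Gzmf, Gzme above Gzmb, Gzmb above Prf1 and Prf1 above Gzma in all 6 libraries. Neighbours without a clear order were Gzmg and Gzmd, and Gzmd and Srgn, where the upper gene was higher in 3 of 6 libraries, and Gzmf exceeded Gzme in 5 of 6. The FPKM of Gzmc was above that of 86.1% of the 12800 tested genes, and the FPKM of Gzma above that of 17.0%.

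**Figure D1:**
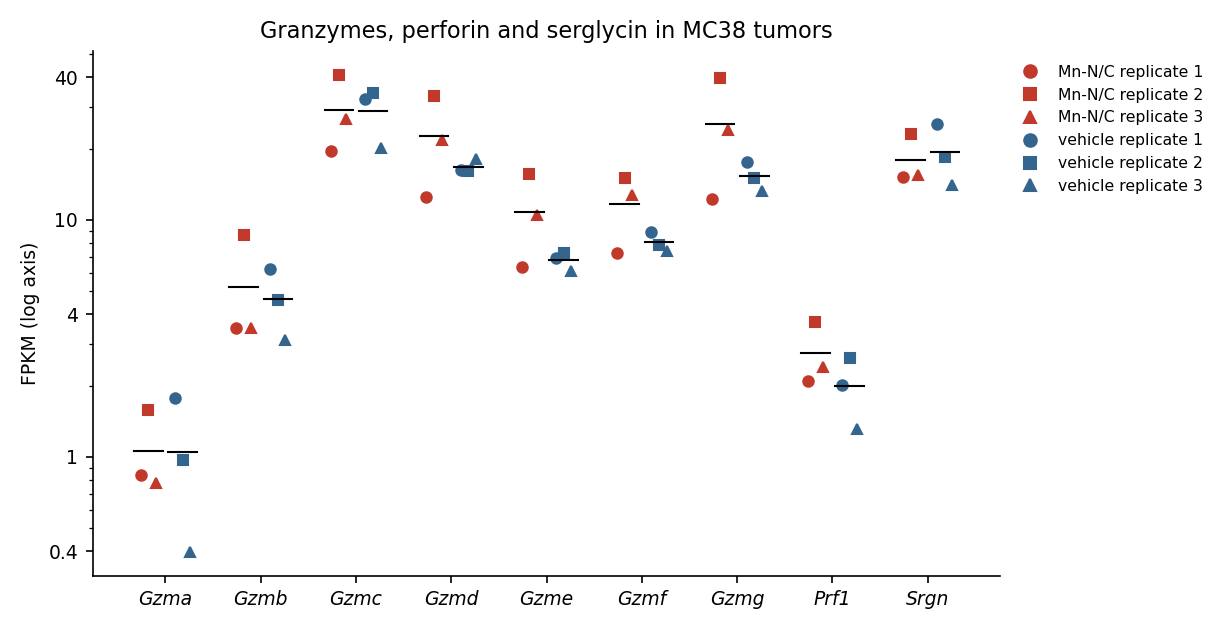
FPKM (log axis) of 9 of the genes in each library, with Mn-N/C left of vehicle, a symbol per replicate and a black line at the mean of 3 libraries; Gzmk, with 0 or 1 read per library, is not drawn. Mn-N/C replicate 2 is the highest library for 7 genes, and the groups overlap for each of the 9.

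Gzmc, Gzmd, Gzme, Gzmf and Gzmg were read abundantly and together, whereas the gene between Gzmg and Gzmf was nearly silent. Gzmn, a granzyme gene known from mouse testis, had 0, 0 and 0 reads in the Mn-N/C libraries and 0, 0 and 4 in the vehicle libraries. By the file's coordinates, whose build it does not name and which differ from those of the promoters above, the minus-strand genes run along chromosome 14 as Gzme (56355083 to 56358082), Gzmd (56367013 to 56370065), Gzmg (56394039 to 56397036), Gzmn (56403254 to 56412056), Gzmf (56442720 to 56448874), Gzmc (56468898 to 56472113) and Gzmb (56496295 to 56499717). On the other side of Gzme lie proteases of mast cells and neutrophils. The nearest of them, Ctsg (cathepsin G), had a mean of 0.228 ± 0.201 FPKM in Mn-N/C tumors and 0.339 ± 0.244 FPKM in vehicle tumors (SD, n = 3 each), and Cma2 and Mcpt9 had 0 reads in all 6 libraries. The other granzymes and chymases with enough reads, Gzmm, Cma1, Mcpt1, Mcpt2 and Mcpt4, had mean levels of 1.04 to 1.33 CPM in Mn-N/C tumors and 0.426 to 1.52 CPM in vehicle tumors, and 0 of the 5 were called.

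**Figure D2:**
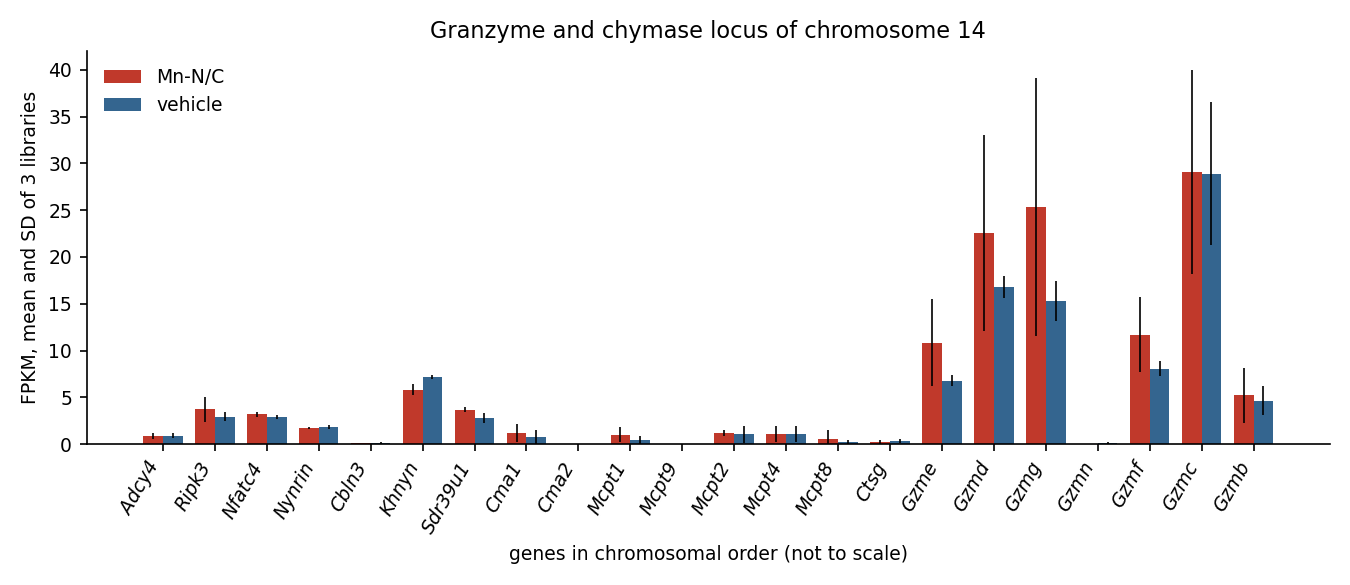
Mean FPKM with SD of 3 libraries for 22 genes of chromosome 14 in chromosomal order, Mn-N/C left of vehicle, spacing not to scale. Levels are high at Gzme, Gzmd, Gzmg, Gzmf and Gzmc, near 0 at Gzmn, and low at the chymases and Ctsg.

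Treatment with Mn-N/C was compared with vehicle to ask whether the killing machinery of lymphocytes was transcribed more in treated tumors. Of the 9 genes tested, 0 were called at an adjusted p under 0.05 by edgeR's quasi-likelihood test, and over all 12800 genes tested this test called 0 (0%). An unadjusted p under 0.05 was reached in the higher direction by 9.82% of them and in the lower direction by 11.1%. DESeq2 called 9.34% of the genes to which it gave an adjusted p. It gave one to 4 of the 10 genes described here and called 0 of them (the smallest DESeq2 adjusted p was 0.109, for Gzmg). The mean was higher in Mn-N/C tumors for 8 of the 9, as for 50.2% of all genes tested, although that direction turned for Gzmc once the trend of counts on GC content or gene length was removed or FPKM was fitted, and for Gzma once the length trend was removed. Srgn, the gene with the lower mean, turned to a higher one once the GC trend was removed. At an unadjusted p under 0.05 in the main edgeR fit, 1 gene of the 9, Gzme, was higher. That count depended on the fit. Unadjusted p-values from DESeq2 were 0.0277 for Gzme, 0.0476 for Gzmf and 0.0208 for Gzmg. DESeq2 gave such a p in the higher direction to 1176 of the 16762 genes it fitted. The groups overlapped for all 9, while 26.4% of all genes tested had groups that did not overlap. The median log2 fold change (Mn-N/C over vehicle) was 0.44 over the 9 genes and 0.00 over all genes tested. The median and the count of 8 depended on single libraries. Without Mn-N/C replicate 2 the median over the 9 genes was 0.06 with 5 of 9 above 0, and without vehicle replicate 3 it was 0.26 with 5 of 9 above 0.

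Gzma, Gzmb and Gzmk stand for the granzymes that resting or freshly activated killer cells make. Gzmb (ENSMUSG00000015437) had 84, 235 and 90 reads in the Mn-N/C libraries, against 164, 108 and 67 reads in the vehicle libraries. Mn-N/C replicate 2 was the highest of the 6 and the other Mn-N/C libraries lay below vehicle replicates 1 and 2. Its mean was 5.22 ± 2.96 FPKM in Mn-N/C and 4.63 ± 1.54 FPKM in vehicle tumors (SD, n = 3 each), which gave a log2 fold change of 0.19 (SE 0.393; edgeR adjusted p = 0.821). Without Mn-N/C replicate 2 the log2 fold change of Gzmb was -0.37, and without vehicle replicate 3 it was -0.03. Gzma (ENSMUSG00000023132, chromosome 13 from 113230359 to 113237515) had 14, 30 and 14 reads in the Mn-N/C libraries, against 33, 16 and 6 in the vehicle libraries. Vehicle libraries held both the highest and the lowest value of Gzma. The log2 fold change was 0.03 (SE 0.560; edgeR adjusted p = 0.985), and it was -0.36 without Mn-N/C replicate 2. Gzmk (ENSMUSG00000042385, chromosome 13 from 113308142 to 113362442), a granzyme of memory T cells, had 0, 0 and 1 reads in the Mn-N/C libraries and 1, 1 and 0 in the vehicle libraries. No difference could be detected for Gzmk at this depth.

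Within the cluster, Gzmc had almost the same mean in both groups, while the means of its 4 neighbours were higher in Mn-N/C tumors without passing the test. Gzmc (ENSMUSG00000079186) had 292, 696 and 426 reads in the Mn-N/C libraries, against 533, 501 and 270 reads in the vehicle libraries. The Mn-N/C libraries held its highest and its lowest FPKM. It averaged 29.1 ± 10.9 FPKM in Mn-N/C and 28.9 ± 7.63 FPKM in vehicle tumors (SD, n = 3 each), which gave a log2 fold change of 0.03 (SE 0.279; edgeR adjusted p = 0.968). Without Mn-N/C replicate 2 the log2 fold change of Gzmc was -0.29.

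Gzmd (ENSMUSG00000059256) had 200, 610 and 375 reads in the Mn-N/C libraries, against 289, 253 and 262 reads in the vehicle libraries. Its vehicle libraries lay close together, and the Mn-N/C libraries lay on both sides of them. The mean of Gzmd was 22.5 ± 10.5 FPKM in Mn-N/C and 16.8 ± 1.16 FPKM in vehicle tumors (SD, n = 3 each), which gave a log2 fold change of 0.44 (SE 0.296; edgeR adjusted p = 0.419). Gzme (ENSMUSG00000022156) had 97, 272 and 172 reads in the Mn-N/C libraries, against 117, 109 and 84 reads in the vehicle libraries. Again 2 Mn-N/C libraries lay above all vehicle libraries and Mn-N/C replicate 1 among them. The mean of Gzme was 10.8 ± 4.66 FPKM in Mn-N/C and 6.77 ± 0.588 FPKM in vehicle tumors (SD, n = 3 each), a log2 fold change of 0.70 (standard error 0.297, unadjusted p = 0.0467 and adjusted p = 0.232 from edgeR).

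Gzmf (ENSMUSG00000015441) had 111, 263 and 209 reads in the Mn-N/C libraries, against 151, 118 and 102 reads in the vehicle libraries. In FPKM, Mn-N/C replicate 1 was lower than each vehicle library and the other 2 Mn-N/C libraries were higher than all of them. The mean of Gzmf was 11.7 ± 4.02 FPKM in Mn-N/C and 8.05 ± 0.776 FPKM in vehicle tumors (SD, n = 3 each), with a log2 fold change of 0.55 (SE 0.255; edgeR adjusted p = 0.255). Gzmg (ENSMUSG00000040284) had 186, 685 and 391 reads in the Mn-N/C libraries, against 295, 223 and 181 reads in the vehicle libraries. Gzmg spanned the widest range among the cluster genes in Mn-N/C tumors, 3.15-fold between the highest and the lowest CPM, against 1.30-fold in vehicle tumors. Its mean was 25.4 ± 13.8 FPKM in Mn-N/C and 15.3 ± 2.17 FPKM in vehicle tumors (SD, n = 3 each), which gave a log2 fold change of 0.75 (SE 0.352; edgeR adjusted p = 0.265).

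Each of these 4 estimates depended on which Mn-N/C library was left out. Without replicate 2, which also had the high T cell and muscle markers, the log2 fold changes were 0.06 for Gzmd, 0.35 for Gzme, 0.34 for Gzmf and 0.28 for Gzmg. Without replicate 1 they were 0.72, 0.96, 0.80 and 1.07 in the same gene order, each with an adjusted p of 0.452 from edgeR. Summing the reads of a set to 1 row, which does not depend on how reads were split between paralogs inside it, gave a log2 fold change of 0.31 (SE 0.253; edgeR adjusted p = 0.504) for Gzmc to Gzmf and 0.41 (standard error 0.273, adjusted p = 0.412) for Gzmc to Gzmg. Without Mn-N/C replicate 2 these sums had log2 fold changes of -0.010 and 0.053, and without Mn-N/C replicate 1 they had 0.56 and 0.68.

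**Figure D3:**
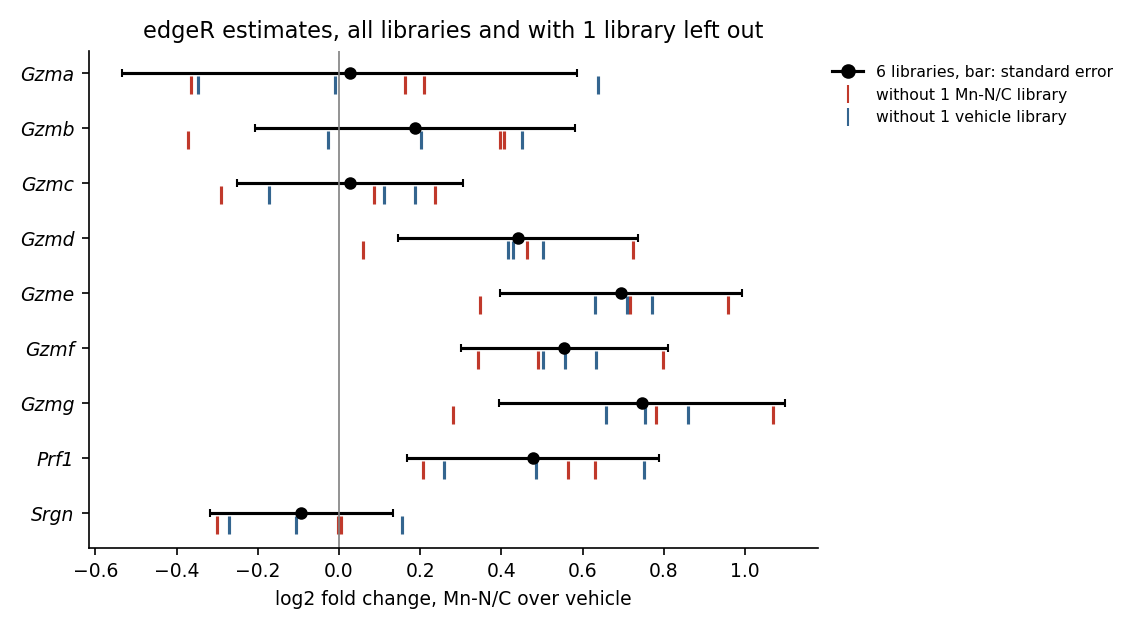
edgeR log2 fold change of each gene, Mn-N/C over vehicle, from 6 libraries with its standard error (black), and the same estimate with 1 Mn-N/C (red) or 1 vehicle (blue) library left out. Gzmd, Gzme, Gzmf, Gzmg and Prf1 stay above 0 in each of these fits, while Gzma, Gzmb, Gzmc and Srgn lie on both sides of 0.

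Prf1 encodes the pore and Srgn a packing matrix of the granules. Prf1 (ENSMUSG00000037202, chromosome 10 from 61133612 to 61140459, plus strand) had 90, 182 and 111 reads in the Mn-N/C libraries, against 96, 111 and 51 reads in the vehicle libraries. In FPKM, vehicle replicates 1 and 3 lay below every Mn-N/C library and vehicle replicate 2 lay among them. The mean of Prf1 was 2.74 ± 0.862 FPKM in Mn-N/C and 1.98 ± 0.653 FPKM in vehicle tumors (SD, n = 3 each), which gave a log2 fold change of 0.48 (SE 0.310; edgeR adjusted p = 0.401). Without Mn-N/C replicate 2 the log2 fold change of Prf1 was 0.21. Srgn (ENSMUSG00000020077, chromosome 10 from 62329612 to 62363230, minus strand), which myeloid cells and other blood cells also express, had 553, 956 and 611 reads in the Mn-N/C libraries, against 1032, 662 and 463 reads in the vehicle libraries. Vehicle replicate 1 was its highest library and vehicle replicate 3 its lowest. The log2 fold change of Srgn was -0.09 (SE 0.225; edgeR adjusted p = 0.850), and it was -0.30 without Mn-N/C replicate 2 and 0.15 without vehicle replicate 1.

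Set against each other by raw counts, the Gzmc to Gzmf cluster outnumbered Gzma, Gzmb and Gzmk in every library. The 4 cluster genes had 700, 1841 and 1182 reads in the Mn-N/C libraries and 1090, 981 and 718 reads in the vehicle libraries. Gzma, Gzmb and Gzmk together had 98, 265 and 105 reads in the Mn-N/C libraries and 198, 125 and 73 in the vehicle libraries. The ratio of both sums was 7.14, 6.95 and 11.3 in the Mn-N/C libraries, against 5.51, 7.85 and 9.84 in the vehicle libraries, so that its range in each group overlapped that in the other. On the log2 scale the ratio averaged 3.04 ± 0.39 in Mn-N/C and 2.91 ± 0.42 in vehicle tumors (SD, n = 3 each), a difference of 0.13 that is smaller than the spread between replicates. With FPKM in place of reads the difference was 0.13, and with Gzmg added to the cluster it was 0.21. Without Mn-N/C replicate 2 the difference was 0.25 and without vehicle replicate 3 it was 0.33, while without Mn-N/C replicate 3 or without vehicle replicate 1 it was -0.09. Gzmb made up 86.7% ± 1.71 of the smaller sum in Mn-N/C and 87.0% ± 4.51 in vehicle tumors (SD, n = 3 each). Summed to 1 row, Gzma, Gzmb and Gzmk had a log2 fold change of 0.16 (SE 0.395; edgeR adjusted p = 0.849). This sum was not refitted with a library left out.

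The makeup of the cluster was compared as the share of each gene in its reads. Of the reads of Gzmc, Gzmd, Gzme, Gzmf and Gzmg, Gzmc took 33.0% (95% exact Clopper-Pearson interval 29.9 to 36.2), 27.6% (25.8 to 29.3) and 27.1% (24.9 to 29.4) in the Mn-N/C libraries. Its share was 38.5% (35.9 to 41.1), 41.6% (38.8 to 44.5) and 30.0% (27.1 to 33.1) in the vehicle libraries, so Mn-N/C replicate 1 and vehicle replicate 3 crossed. Gzme took 10.9%, 10.8% and 10.9% in the Mn-N/C libraries, each above the 8.45%, 9.05% and 9.34% in the vehicle libraries. The 95% intervals of Gzme, 8.97 to 13.2 for Mn-N/C replicate 1 and 7.52 to 11.4 for vehicle replicate 3 among them, overlapped. The share of Gzmg was 21.0%, 27.1% and 24.9% in the Mn-N/C libraries, against 21.3%, 18.5% and 20.1% in the vehicle libraries, where only Mn-N/C replicate 1 lay within the vehicle range. The share of Gzmd averaged 23.5% ± 0.835 in Mn-N/C and 23.7% ± 4.74 in vehicle tumors (SD, n = 3 each). Intervals cover counting error only. No test was run on these shares, and Gzme, Gzmd and Gzmg are the genes whose reads are hardest to tell apart.

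**Figure D4:**
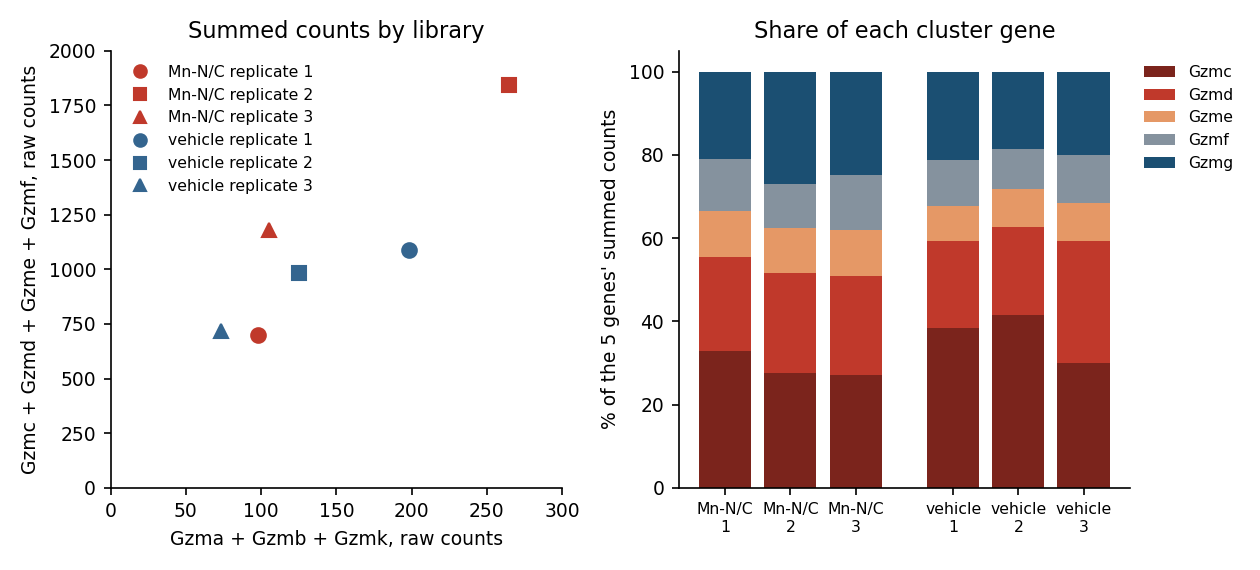
Left, summed raw counts of Gzmc to Gzmf against those of Gzma, Gzmb and Gzmk, a point per library. Right, the share of each of 5 cluster genes in their summed counts, Mn-N/C libraries left of vehicle libraries; Gzmc takes 27.1% to 33.0% in Mn-N/C and 30.0% to 41.6% in vehicle tumors.

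The level of each gene was set against that of the T cell markers across the 6 libraries. Against the summed CPM of the 11 T cell markers, both on the log2 scale, Pearson's r was 0.96 for Gzmb (exact permutation p = 0.00139, adjusted p = 0.0125 over 9 relations; Spearman's rho 1.00, p = 0.00278, adjusted p = 0.025). It was 0.96 for Gzma (exact permutation p = 0.00417, adjusted p = 0.0167; rho 0.94, p = 0.0167, adjusted p = 0.075) and 0.97 for Srgn (exact permutation p = 0.00556, adjusted p = 0.0167; rho 0.89, p = 0.0333, adjusted p = 0.1). Each of the 3 kept a high r without the libraries farthest from the median marker level, Mn-N/C replicate 2 and vehicle replicate 1: 0.98 for Gzmb, 0.90 for Gzma and 0.98 for Srgn over 4 libraries. For Gzmc r was 0.87 (exact permutation p = 0.0333, adjusted p = 0.075; rho 0.77, p = 0.103) and 0.82 without those libraries. For Prf1 it was 0.69 (exact permutation p = 0.125, adjusted p = 0.225; rho 0.60, p = 0.242) and 0.88 without them. The unadjusted p-values of Gzmb are the smallest that these tests can give with 6 libraries. Libraries were permuted without regard to treatment group. Markers of other cells varied across the same libraries. Summed NK cell markers were at 5.58, 9.82 and 6.24 CPM in the Mn-N/C libraries, against 12.2, 7.23 and 5.60 CPM in the vehicle libraries. Dendritic cell markers were at 28.9, 49.9 and 27.8 CPM in the Mn-N/C libraries, against 58.3, 35.3 and 33.9 CPM in the vehicle libraries. B and plasma cell markers were at 1.47, 18.6 and 3.60 CPM in the Mn-N/C libraries, against 16.4, 2.82 and 4.26 CPM in the vehicle libraries. All 3 were, like the T cell markers, highest in Mn-N/C replicate 2 and vehicle replicate 1. The same held for summed markers of mast cells, macrophages, neutrophils, all leukocytes, endothelial cells, fibroblasts and epithelial cells. It did not hold for those of keratinocytes, skeletal muscle or adipocytes. Fibroblast markers, for example, were at 5423 CPM in Mn-N/C replicate 2 and 3616 CPM in vehicle replicate 1, against 2223 to 2382 CPM in the others. The part of these other cells in the relations was not tested, nor was that of Lck within the T cell sum.

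For Gzmd, Gzme, Gzmf and Gzmg no relation to the T cell markers was detected. Pearson's r was 0.38 for Gzmd (exact permutation p = 0.467; rho 0.09, p = 0.919), 0.49 for Gzme (p = 0.318; rho 0.60, p = 0.242), 0.45 for Gzmf (p = 0.338; rho 0.66, p = 0.175) and 0.58 for Gzmg (p = 0.231; rho 0.54, p = 0.297). Without the 2 farthest libraries r was -0.29, 0.20, 0.00 and 0.08 in the same gene order. Vehicle replicate 3 had the lowest T cell markers but the highest Gzmd of the vehicle libraries, at 18.1 FPKM. Whether the r of Gzmb and that of Gzmd differ was not tested. In FPKM, the 5 cluster genes summed to 58.0 to 145 per library, against 2.17 to 7.64 for the T cell markers and 1.91 to 4.89 for 9 NK cell markers. The cells from which the cluster reads came were not tested.

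**Figure D5:**
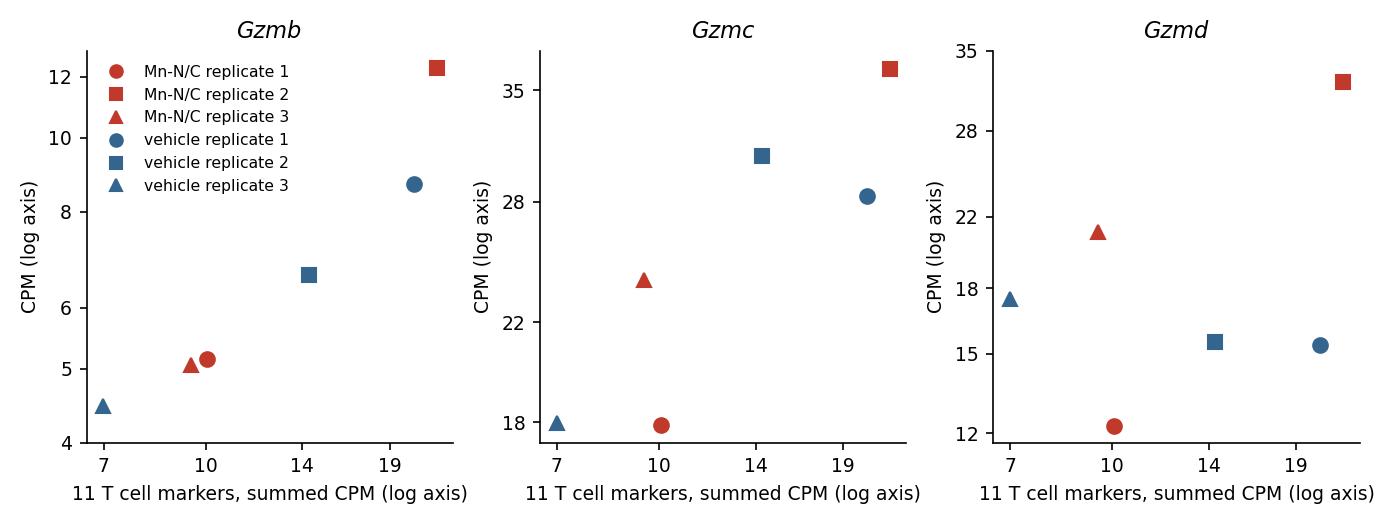
CPM of Gzmb, Gzmc and Gzmd against the summed CPM of 11 T cell markers, both axes logarithmic, a point per library. Gzmb has the same order of libraries as the markers (rho 1.00), and for Gzmd rho is 0.09; the difference was not tested.

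T cell and NK cell markers themselves were not called. Log2 fold changes were above 0 for 5 of 9 T cell markers tested (median 0.04) and for 1 of 5 NK cell markers tested (median -0.07), and below 0 for the rest. Cd8a, the coreceptor of cytotoxic T cells, had 9, 20 and 8 reads in the Mn-N/C libraries, against 28, 12 and 3 reads in the vehicle libraries. Ncr1, a receptor of NK cells, had 15, 5 and 11 reads in the Mn-N/C libraries, against 15, 20 and 1 reads in the vehicle libraries. Both genes had at most 28 reads in any library, where Gzmc had at least 270. Mast cell and basophil markers, which can accompany the chymases of this locus, summed to 5.33, 21.5 and 8.38 CPM in the Mn-N/C libraries and 16.1, 8.63 and 10.3 CPM in the vehicle libraries.

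The genes that load and release granules showed no call. Log2 fold changes were above 0 for 10 and below 0 for 5 of the 15 genes of granule maturation and loading tested (median 0.04). At an unadjusted p under 0.05, Chst11, a sulfotransferase that modifies chondroitin chains such as those on serglycin, was higher (log2 fold change 0.33, SE 0.104), and Lamp2, a lysosomal membrane protein, and Lyst, the lysosomal trafficking regulator, were lower (-0.40, standard error 0.0939, and -0.35, standard error 0.121), with edgeR adjusted p-values of 0.182 for Chst11 and Lamp2 and 0.193 for Lyst. Ctsc, the peptidase that activates granzymes by removing their leading dipeptide, was at 170 ± 39.6 CPM in Mn-N/C and 143 ± 27.5 CPM in vehicle tumors (SD, n = 3 each). Calr, the calcium-binding chaperone calreticulin, was the most abundant of the list per length, at a mean of 367 FPKM over the 6 libraries, with a log2 fold change of 0.16 (SE 0.0964; edgeR adjusted p = 0.368). Log2 fold changes were above 0 for 8 and below 0 for 5 of 13 genes of granule exocytosis tested, and Kif5b, a kinesin heavy chain, and Snap23, a membrane fusion protein, were lower at an unadjusted p under 0.05 (log2 fold changes -0.63 and -0.36). Rab7, a small GTPase of late endosomes, was the most abundant of them per length at a mean of 103 FPKM over the 6 libraries, with a log2 fold change of 0.07. Of the 15 genes of maturation and loading, 1 was higher and 2 were lower at an unadjusted p under 0.05. Of the 13 of exocytosis, 0 were higher and 2 were lower. Over all genes tested, 9.82% were higher and 11.1% lower at that p. Many of these genes serve lysosomes in all cells.

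Granzymes act on proteins of the target cell and are held back by serpins. Log2 fold changes were above 0 for 14 and below 0 for 7 of 21 substrate genes tested (median 0.11), and 0 were called. At an unadjusted p under 0.05, 6 of 21 were higher, beside 9.82% of all genes tested, and 2 were lower, beside 11.1%. The smallest p-values among the higher ones were those of Parp1, the DNA repair enzyme cleaved in apoptosis, Lmna and Lmnb1, which encode lamins of the nuclear envelope. Parp1 had 4093, 4923 and 4278 reads in the Mn-N/C libraries, against 3590, 3622 and 2663 reads in the vehicle libraries, which gave a log2 fold change of 0.35 (SE 0.0913; edgeR adjusted p = 0.182). Hmgb2, a chromatin protein, was the most abundant substrate per length at a mean of 252 FPKM over the 6 libraries, with a log2 fold change of 0.07. Across genes, which are not independent replicates, log2 fold changes correlated with GC content (Spearman's rho 0.49). The part of GC content in these substrates and in the granule genes above was not tested. Log2 fold changes were above 0 for 5 and below 0 for 3 of 8 serpins and other inhibitors tested (median 0.01). The smallest p was that of Serpinb9b (log2 fold change 0.41, SE 0.366; edgeR adjusted p = 0.547), and the most abundant per length was Serpinb6a, at a mean of 38.2 FPKM over the 6 libraries. Serpinb9, a mouse inhibitor of granzyme B, had 258, 461 and 259 reads in the Mn-N/C libraries, against 389, 252 and 268 reads in the vehicle libraries.

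Other products of killer cells were scarce. For the 5 death ligands and cytokines tested, each log2 fold change was below 0 (median -0.21), and 0 were called. The smallest p among them was that of Tnf, the tumor necrosis factor, with 5, 11 and 11 reads in the Mn-N/C libraries, against 31, 5 and 19 reads in the vehicle libraries. Ccl5, a chemokine of T cells and other leukocytes, was the most abundant per length at a mean of 2.56 FPKM over the 6 libraries. Ifng, the type II interferon of killer cells, had 0, 0 and 0 reads in the Mn-N/C libraries and 4, 2 and 0 in the vehicle libraries. Among 7 tested transcription factors of cytotoxic cells, log2 fold changes were above 0 for 3 and below 0 for 4, and Zeb2, which other cells of a tumor also express, was lower at an unadjusted p under 0.05, while Id2, an inhibitor of E-protein transcription factors, was the most abundant per length at a mean of 5.86 FPKM over the 6 libraries. Among 11 tested cytokine receptors and signals that drive granzymes, they were above 0 for 7 and below 0 for 4, and Jak1, a kinase of cytokine receptors and the most abundant of them per length, was lower at an unadjusted p under 0.05 (log2 fold change -0.20, standard error 0.0845). Il21r, the receptor of interleukin 21, was at 7.04 ± 1.77 CPM in Mn-N/C and 4.43 ± 1.91 CPM in vehicle tumors (SD, n = 3 each). Zeb2 and Jak1 were each the only gene of their list lower at that unadjusted p, as were 11.1% of all genes tested.

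The genes most like Gzmb, Prf1 and Gzmc across the 6 libraries were ranked by Pearson's r of log2 CPM, as a description with no test. For Gzmb they were Rasgrp2, Nsg1, Uba7, Fam177a2 and Csf2rb2, with r of 0.99 to 1.00. For Prf1 they were Selenow, Ppif, Panx1, Slc7a8 and Qdpr, with r of 0.98 to 0.99. For Gzmc they were Adap1, Tnfrsf11b, Ino80b, Vav2 and F2rl2, with r of 0.97 to 1.00. These are the highest r among 12800 genes over only 6 libraries.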

How the data were processed

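Whole-number read counts per gene were deposited by the authors without normalization for 3 Mn-N/C and 3 vehicle libraries. The authors made the deposited FPKM values by dividing each count by gene length and library total. HISAT2 2.0 and mm10 are listed in the submitters' processing notes, but the gene coordinates in the file differ from the GRCm38.p6 positions of the promoters. The sources used here name no counting program, annotation, strand setting or read length.

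The quasi-likelihood test of edgeR 4.0.16 (R 4.3.3) was run on counts with TMM scaling, fitting only the group, over the 12800 genes that filterByExpr kept, with Benjamini-Hochberg adjustment over all of them and calls at 0.05. CPM values are scaled by TMM. Library totals were 14988588 to 18961134 reads, which limits the precision of genes with few reads. The counts of replicates differed beyond sampling noise (chi-square per degree of freedom 6.56 to 27.0), so each library was counted. The test was checked on simulated counts. The ratio of the sums of Gzmc to Gzmf and of Gzma, Gzmb and Gzmk was described without a test. Each of these sums, as a row of its own, was tested with edgeR. Relations to T cell markers used two-sided exact permutation tests. Reading frames were aligned with Biopython 1.88, and promoters are from RefSeq.

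All members are named, and of the other lists called genes or, failing that, up to 3 with the smallest p and the one with the highest mean FPKM. Members, lists and tests were chosen with earlier results of these data known. Cd8a, Ncr1, Ctsc, Serpinb9, Ifng, Epcam, Krt8, Cdx2, Gzmn, Ctsg, Cma2 and Mcpt9 are named for their role or position. Alternatives were DESeq2 1.42.0, RLE and upper-quartile scaling, no filter, limma 3.58.1 on log2(FPKM + 1) or log2(FPKM + 0.1) (with an FPKM minimum of 1 in 3 libraries, or without it), a replicate block, trends on GC content or length removed, paralogs summed, and each library left out.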

Additional observations from a re-analysis of the deposited data

How the results depend on the processing

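No member was called under any of the alternatives run, though DESeq2 gave 6 of the 10 no adjusted p, among them Gzme and Gzmf. Over the whole table edgeR called 0 genes, DESeq2 746, and limma on log2(FPKM + 1) with no filter 1. With 1 library left out the count ranged from 0 to 583, the highest without vehicle replicate 2. The cause was not tested.

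Gzmd, Gzme, Gzmf, Gzmg and Prf1 kept a log2 fold change above 0 in every fit run, and their leave-one-out ranges were 0.06 to 0.72, 0.35 to 0.96, 0.34 to 0.80, 0.28 to 1.07 and 0.21 to 0.75. Other members turned. Gzma was at -0.10 with the length trend removed, and -0.36 to 0.64 with 1 library left out. Gzmb was at -0.37 to 0.45 with 1 library left out. Gzmc was at -0.017 in limma on log2(FPKM + 1) with or without the filter, -0.018 on log2(FPKM + 0.1), -0.025 with the GC trend removed, -0.11 with the length trend removed, and -0.29 to 0.24 with 1 library left out. Srgn was at 0.071 with the GC trend removed and -0.30 to 0.15 with 1 library left out. Summed to 1 row and with 1 library left out, an alternative chosen after seeing the data, Gzmc to Gzmf were at -0.010 to 0.56 and Gzmc to Gzmg at 0.053 to 0.68, each lowest without Mn-N/C replicate 2. The difference in the log2 ratio of the sets ranged over -0.09 to 0.33 with 1 library left out.

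The replicate numbers did not pair the libraries (correlations of same-numbered deviations -0.15, -0.01 and 0.12). With the replicate number as a block, 0 members and 0 genes over the table were called.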
